A study of Mus musculus with 4 samples.

Results

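Complement is the plasma and tissue protein cascade that tags particles for uptake and calls in leukocytes. The genes described here encode 9 of its components and receptors in mouse microglia cultures. They are C1qa, C1qb, C1qc, C3, C4b, Cfb, Cfp, C3ar1 and C5ar1, taken by gene symbol from a table of 51826 gene models, in which each had 1 model. Their Ensembl IDs are ENSMUSG00000036887 (C1qa), ENSMUSG00000036905 (C1qb), ENSMUSG00000036896 (C1qc), ENSMUSG00000024164 (C3), ENSMUSG00000073418 (C4b), ENSMUSG00000090231 (Cfb), ENSMUSG00000001128 (Cfp), ENSMUSG00000040552 (C3ar1) and ENSMUSG00000049130 (C5ar1). Messenger RNA was sequenced from 4 libraries of primary microglia of newborn C57BL/6 mice, 2 treated with lysophosphatidylserine (LysoPS) for 4 h and 2 mock (labelled untreated). The sample descriptions of all 4 libraries begin with WT. LysoPS is a phospholipid with a single fatty acid chain and is known to act on GPR34, the receptor in the series title. The cells of both groups were shaken off mixed glial cultures of trypsin-dissociated brains after 2 weeks. No dose of LysoPS stands in the labels, and the treatment note speaks of 1 treated replicate while 2 sample labels carry LysoPS. The labels also do not say whether the replicates were different cultures or animals, so the p-values measure the spread between these libraries only, which may be technical.

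In the classical pathway C1q, a bundle of A, B and C chains, binds antibody, apoptotic cells or synapses. Its partner proteases are C1r and C1s, and C1s then cuts C4 and C2, whose fragments form an enzyme that cuts C3. In the alternative pathway factor B (Cfb) joins cleaved C3 to form a second such enzyme, which properdin (Cfp) stabilises. The small fragments C3a and C5a act on the receptors C3aR (C3ar1) and C5aR1 (C5ar1). In the brain microglia are the main source of C1q, while astrocytes also make C3 and C4, and tagging of synapses by C1q and C3 is known for its part in synapse removal.

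The comparison asked which of these transcripts differed between LysoPS and mock libraries, in CPM, that is, counts scaled to library size. Cfp and C3 were about 10.1-fold and 9.22-fold higher after LysoPS, Cfb 5.29-fold and C3ar1 2.78-fold. C1qb and C1qa were higher by 1.46-fold and 1.37-fold, and C4b was lower, at 0.637 of the mock level. C1qc and C5ar1 did not pass the test, and C5ar1 differed 7.41-fold between the LysoPS libraries. Thus 6 of the 9 genes were higher and 1 lower at an adjusted p under 0.05 (edgeR quasi-likelihood test, Benjamini-Hochberg over 19057 tested genes). Over all tested genes 25.5% passed, 12.8% higher and 12.6% lower. At least 2-fold higher were 4 of the 9, against 4.32% of all tested genes. In CPM the LysoPS and mock libraries did not overlap for 8 of the 9 genes, 7 with LysoPS above and 1 below. Over all tested genes this held for 67%, 32.5% with LysoPS above and 34.5% below. The median log2 fold change was 0.68 over the 9 genes, which is the value of C5ar1, and -0.01 over all tested genes. Without LysoPS replicate 1 the median of the 9 was 0.43, and without LysoPS replicate 2 it was 1.49. All 9 were kept by the filter on low counts. With library totals in place of trimmed-mean (TMM) scaling the calls over all genes were 1821 higher and 3226 lower, against 2447 and 2407, and on the deposited TPM scale 1354 higher and 3059 lower. The 9 genes gave 6 and 1 under both.

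**Figure D1:**
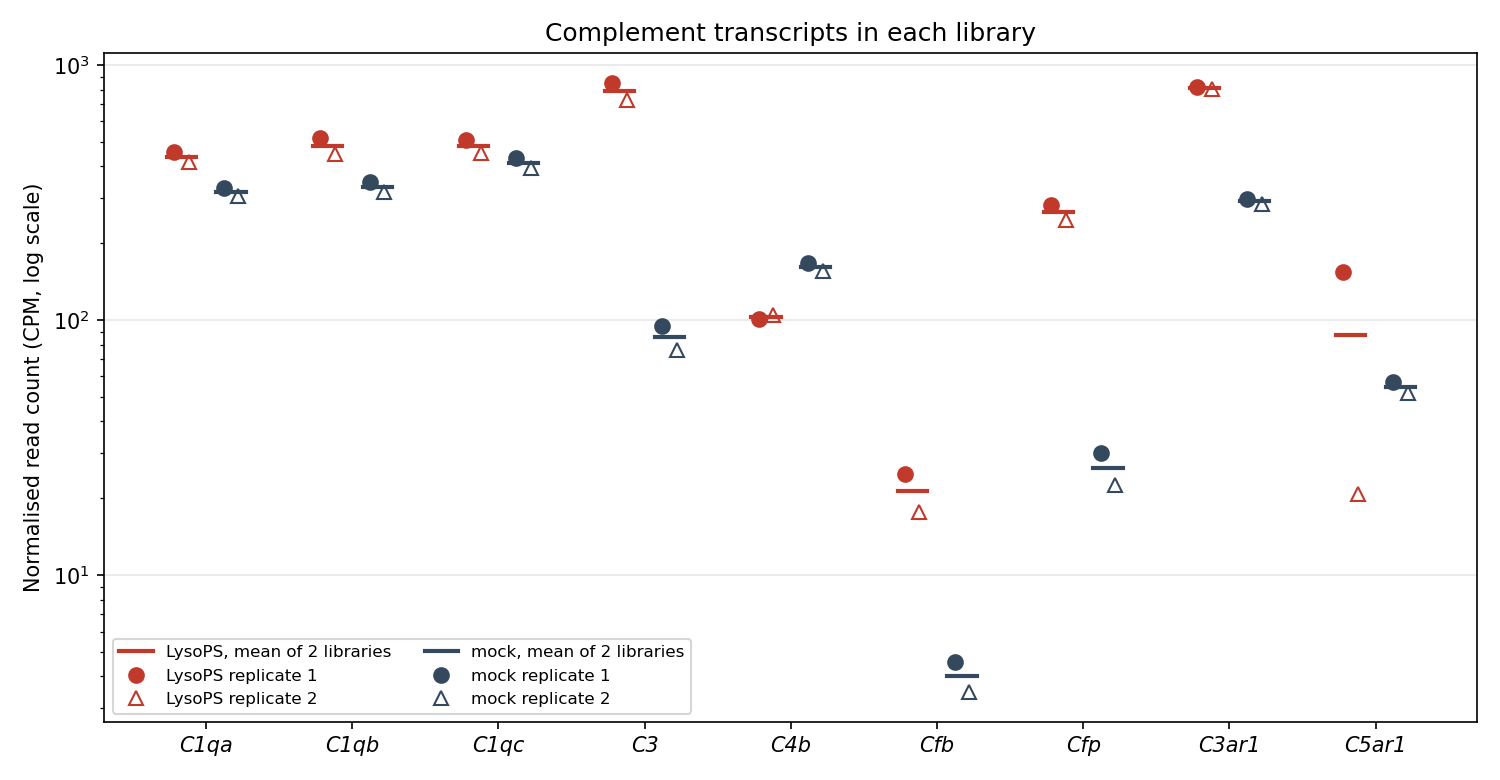
Normalised read count (CPM, log axis) of the 9 complement genes in each library, with LysoPS in red on the left of each pair and mock in dark blue on the right; filled circles are replicate 1, open triangles replicate 2 and bars the mean of 2 libraries. C3, Cfp, Cfb and C3ar1 stand well above mock in both LysoPS libraries, C4b stands below, and C5ar1 is at 154 CPM in one LysoPS library and 20.8 CPM in the other.

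The LysoPS libraries held 34689045 and 45193959 counts and the mock libraries 30001098 and 41572340. The cultures were mixed, so markers of each cell type were read in the same libraries. The 18 microglia and macrophage markers summed to 6255 and 5725 CPM after LysoPS and to 3150 and 2860 CPM in mock, with 12 higher, 2 lower and a median log2 fold change of 0.52. The 12 astrocyte markers summed to 5448 and 6180 CPM after LysoPS and to 11515 and 10385 CPM in mock, with 10 lower, 0 higher and a median of -0.77. Fibroblast and mural markers summed to 9563 and 9699 CPM after LysoPS, against 10427 and 10479 CPM in mock, with 2 of 9 lower. The 8 oligodendrocyte lineage markers gave 3 higher and 1 lower, the 5 tested endothelial markers 2 lower, and the 6 neuronal markers 1 higher. Of a list for liver and choroid plexus, transthyretin Ttr rose to 972 and 749 CPM after LysoPS, against 117 and 121 CPM in mock, and the other 2 tested genes did not pass. Of 6 neutrophil markers, S100a9, Ly6g, Mpo and Elane had no count in any library, 1 of 2 tested was higher, and the 6 summed to at most 2.48 CPM after LysoPS and 0.139 CPM in mock. The 6 lymphocyte markers, none of which could be tested, summed to at most 0.358 CPM. The part of these cell types in the results below was not tested, and in such cultures more cells of a type and more RNA per cell cannot be told apart.

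**Figure D2:**
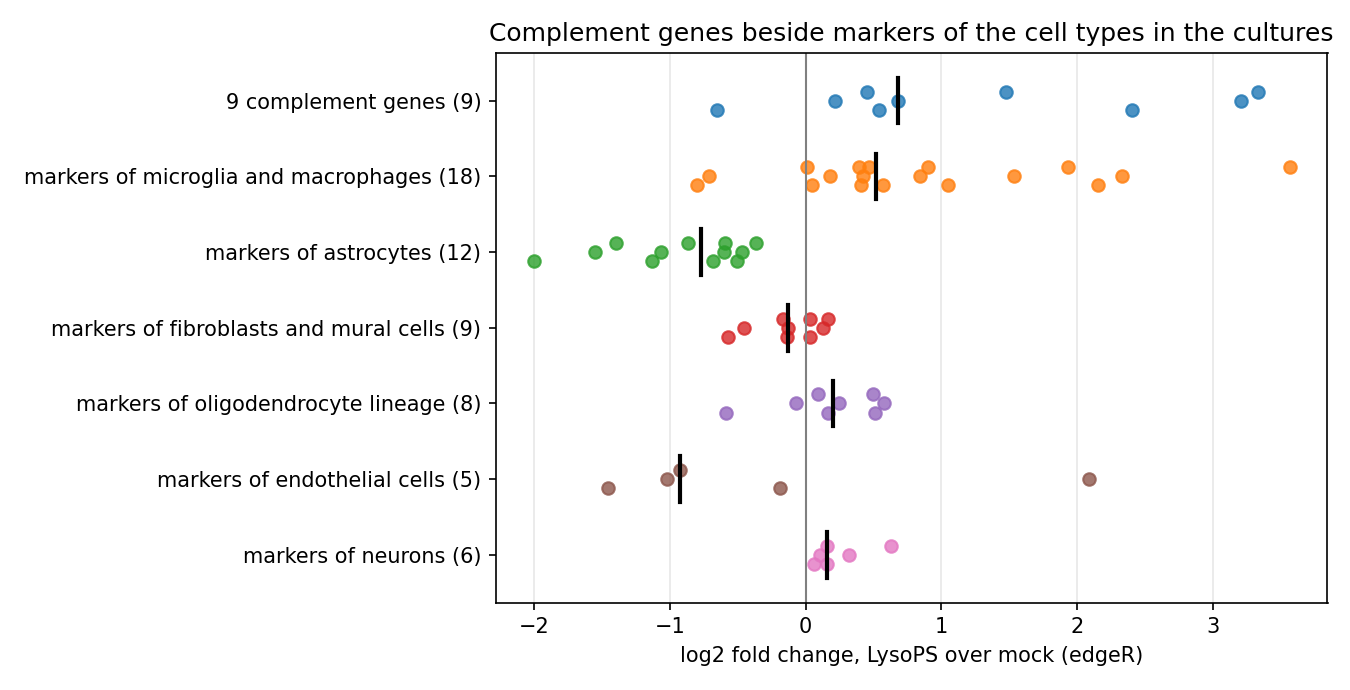
Log2 fold change (LysoPS over mock, edgeR) of the 9 complement genes in the top row and of the tested markers of 6 cell types below it; each point is a gene, the number of genes stands in brackets and the black bar is the median. The medians are 0.68 for the complement genes, 0.52 for microglia and macrophage markers and -0.77 for astrocyte markers; the first is the value of C5ar1 and becomes 0.43 or 1.49 without LysoPS replicate 1 or 2.

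The C1q chain genes lie side by side on the minus strand of chromosome 4 (GRCm38): C1qb from 136880129 to 136886187, C1qc from 136889804 to 136893065 and C1qa from 136895917 to 136898803. The longest annotated transcript of each has 3 exons. C1qa, the A chain, stood at 456 and 416 CPM in the LysoPS libraries, against 330 and 306 CPM in mock. C1qb, the B chain, stood at 517 and 448 CPM after LysoPS, against 346 and 316 CPM in mock. C1qc, the C chain, stood at 507 and 453 CPM after LysoPS, against 432 and 395 CPM in mock. The groups of C1qc overlapped in deposited TPM, at 791 and 742 after LysoPS and 769 and 722 in mock. In CPM both LysoPS libraries lay above both mock libraries for each chain. The log2 fold changes were 0.45 ± 0.08 for C1qa (adjusted p = 0.0139), 0.54 ± 0.09 for C1qb (adjusted p = 0.0145) and 0.21 ± 0.08 for C1qc (adjusted p = 0.128), where the errors are standard errors from limma-voom. When a library is left out, 1 library remains in its group and is assumed to vary like those of the other group. Without mock replicate 2 the calls of C1qa (adjusted p = 0.0888) and C1qb (adjusted p = 0.0738) were lost, and without LysoPS replicate 2 C1qc was called (adjusted p = 0.0435).

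The C1q chains were set beside Csf1r, 1 of the 18 macrophage markers, whose log2 fold changes ran from -0.80 (Trem2) to 3.57 (Adgre1), so that ratios to another marker would differ. Csf1r, which encodes a receptor that microglia need to survive, stood at 458 and 425 CPM after LysoPS, against 351 and 320 CPM in mock (log2 fold change 0.40, adjusted p = 0.0202). The ratio of C1qa to Csf1r counts was 0.987 ± 0.0128 after LysoPS and 0.949 ± 0.0109 in mock (SD, n = 2 each). For C1qb it was 1.13 and 1.05 in the LysoPS libraries, against 0.986 and 0.988 in mock. For C1qc the same ratio was 1.11 and 1.07 in the LysoPS libraries, against 1.23 in both mock libraries. These ratios are given as a description, without a test.

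The chains were also compared per transcript length, in TPM (scaled to library size and transcript length), as a description without a test. Of the summed TPM of the C1q chains, C1qb held 35.6% and 34.7% in the LysoPS libraries, against 32.0% and 31.8% in mock. C1qc held 31.6% and 31.7% after LysoPS, against 36.1% and 35.9% in mock. C1qc was thus the least abundant chain in both LysoPS libraries and the most abundant in both mock libraries. C1qa held 32.8% and 33.7% after LysoPS, against 31.9% and 32.2% in mock. The implied transcript length (from counts and FPKM) of each chain varied by at most 1.01 times between libraries.

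C4b encodes the C4 protein that C1s cuts, and it was the only one of the 9 genes to fall. The gene spans 34728380 to 34743882 of chromosome 17, again on the minus strand. C4b stood at 101 and 105 CPM after LysoPS, against 167 and 156 CPM in mock. The LysoPS libraries lay below both mock libraries (log2 fold change -0.65 ± 0.07, adjusted p = 0.00434). Its near-identical neighbour C4a could share its reads, so the sum of both was fitted too, with 108 and 110 CPM after LysoPS and 178 and 166 CPM in mock (-0.66, adjusted p = 0.00400). Of 12 astrocyte markers, 10 fell in the same libraries, with a median of -0.77 over all 12, and their part in the fall of C4b was not tested. When a change of over 1.5-fold was asked for, the fall of C4b was not called (adjusted p = 0.483).

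C3, the central component that both pathways cut, spans 57203970 to 57228136 of chromosome 17 (minus strand), with 41 exons in its longest transcript. It had 28311 and 31788 counts after LysoPS, against 2921 and 3283 in mock. This is 846 and 727 CPM after LysoPS, against 94.8 and 75.9 CPM in mock (log2 fold change 3.20 ± 0.13, adjusted p = 0.000457). Both LysoPS libraries stood far above both mock libraries. By the size of its change C3 ranked 151 of 19057 tested genes, counted from the largest rise. Leaving out each library in turn gave log2 fold changes from 3.05 to 3.37.

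Both alternative pathway genes rose as well. Cfp encodes properdin, which steadies the alternative pathway enzyme, and lies on the X chromosome from 20925454 to 20931555 (minus strand). Cfp stood at 283 and 246 CPM after LysoPS, against 30.0 and 22.6 CPM in mock (log2 fold change 3.33 ± 0.15, adjusted p = 0.00055). It ranked 142 by size. Cfb encodes factor B, the protease of that enzyme, and spans 34856374 to 34862518 of chromosome 17 (minus strand). It stood at 24.9 and 17.7 CPM after LysoPS, against 4.58 and 3.49 CPM in mock (2.40 ± 0.27, adjusted p = 0.00310). The groups overlapped for neither gene.

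Cfb was the only one of the 9 whose implied transcript length varied by over 1.2 times between libraries, by 1.54 times. Of 15803 tested genes with at least 20 counts in each library, 14.4% varied by over 1.2 times, and the part of this variation in the result was not tested. On the deposited TPM scale Cfb stood at 18.1 and 16.3 after LysoPS, against 5.83 and 4.15 in mock, and its change on the log2(TPM + 0.5) scale was 1.70. Summed with the models that overlap it on the same strand, Cfb changed by 2.31 (adjusted p = 0.00280).

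C3ar1 encodes the receptor for C3a, a G protein-coupled receptor of myeloid cells, and spans 122847138 to 122856161 of chromosome 6 (minus strand). It stood at 818 and 805 CPM after LysoPS, against 299 and 285 CPM in mock (log2 fold change 1.48 ± 0.06, adjusted p = 0.000384). Replicates differed by 1.02 times after LysoPS and 1.05 times in mock, less than for any other of the 9 genes in either group, and the groups did not overlap. Of the 18 microglia and macrophage markers, 5 had a larger log2 fold change than C3ar1, and all 5 were called higher.

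C5ar1 encodes the main receptor for C5a and spans 16246743 to 16259540 of chromosome 7 (minus strand). It had 5151 and 908 counts in LysoPS replicates 1 and 2, against 1755 and 2237 in mock. This is 154 and 20.8 CPM after LysoPS, against 57.0 and 51.7 CPM in mock, so one LysoPS library lay above both mock libraries and the other below both. No direction can be given (log2 fold change 0.68, adjusted p = 0.591): without LysoPS replicate 2 the value was 1.51 (adjusted p = 0.00131), and without LysoPS replicate 1 it was -1.39 (adjusted p = 0.00316). In both of these fits the spread came from the mock libraries alone, so the p-values do not take in the difference between the LysoPS libraries. No other annotated model overlapped C5ar1. Its neighbour C5ar2, which encodes the second C5a receptor, had 3 and 0 counts after LysoPS and 1 and 2 in mock. The implied length of C5ar1 varied by 1.01 times only.

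**Figure D3:**
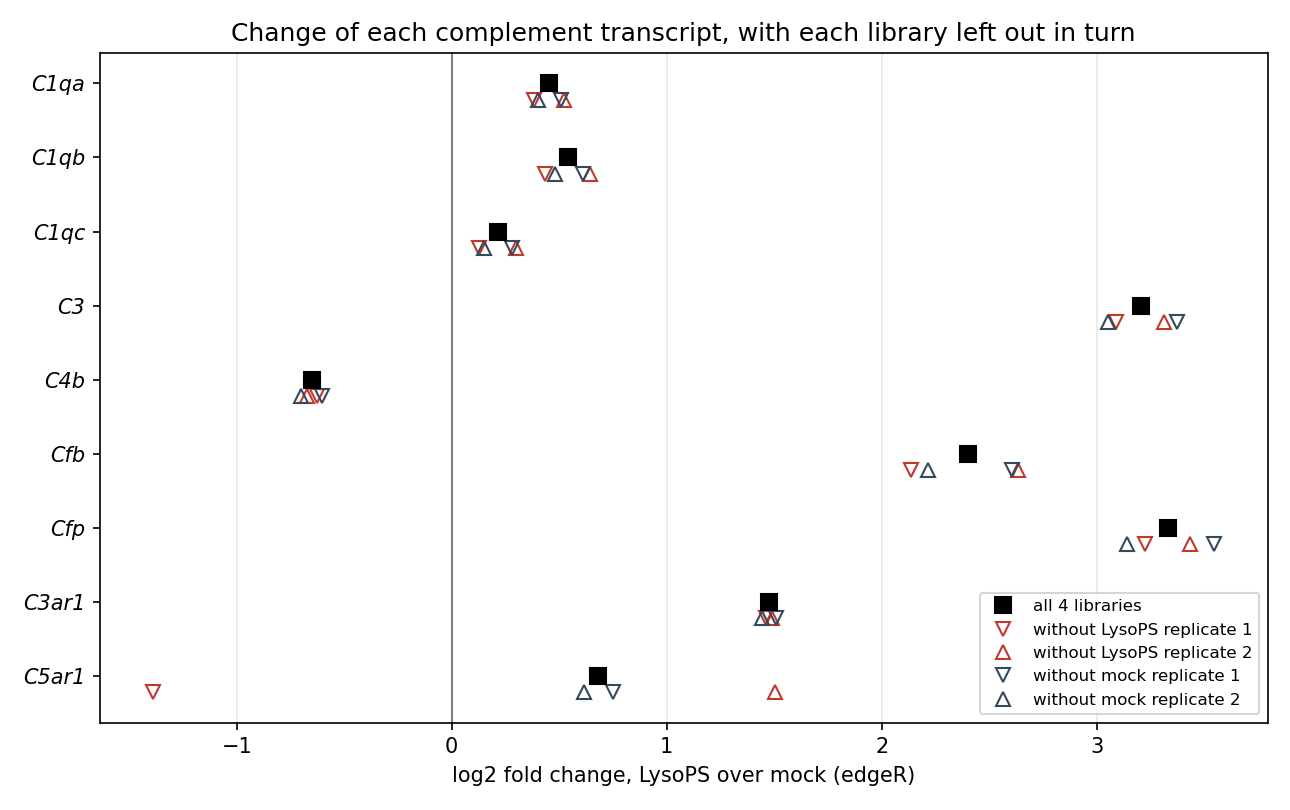
Log2 fold change (LysoPS over mock, edgeR) of each complement gene with all 4 libraries (black squares) and with each library left out in turn (open triangles, red for a LysoPS and dark blue for a mock library). The values of 8 genes stay on one side of 0, and those of C5ar1 run from -1.39 to 1.51.

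The sequences before the start sites of C3, Cfp and C3ar1 are shown because these genes rose most clearly and have an entry in the RefSeq promoter table (GRCm38.p6), which held 6 of the 9 genes. Each is 250 bases, read along the gene's minus strand up to the base before the start. The windows are chr17:57228137-57228386 for C3, chrX:20931556-20931805 for Cfp and chr6:122856158-122856407 for C3ar1, whose RefSeq start lies 4 bases inside the deposited gene. Both strands were searched for 6 patterns, and capitals mark the matches. C/EBP was searched as TTGCNNAA. PU.1 was searched as GAGGAA. The TATA box was searched as TATAAA. AP-1 was searched as TGA and TCA parted by 1 base. NF-kappaB and the interferon-stimulated response element (ISRE) were searched as well.
C3: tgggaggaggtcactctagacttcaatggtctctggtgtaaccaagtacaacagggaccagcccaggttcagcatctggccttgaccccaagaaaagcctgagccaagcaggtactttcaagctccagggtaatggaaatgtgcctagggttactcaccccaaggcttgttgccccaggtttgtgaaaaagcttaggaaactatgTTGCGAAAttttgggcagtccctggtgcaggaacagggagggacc
Cfp: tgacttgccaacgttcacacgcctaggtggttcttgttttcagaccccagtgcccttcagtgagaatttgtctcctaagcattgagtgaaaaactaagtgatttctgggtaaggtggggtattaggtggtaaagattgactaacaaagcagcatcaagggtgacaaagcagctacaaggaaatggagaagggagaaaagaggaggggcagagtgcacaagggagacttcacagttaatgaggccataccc
C3ar1: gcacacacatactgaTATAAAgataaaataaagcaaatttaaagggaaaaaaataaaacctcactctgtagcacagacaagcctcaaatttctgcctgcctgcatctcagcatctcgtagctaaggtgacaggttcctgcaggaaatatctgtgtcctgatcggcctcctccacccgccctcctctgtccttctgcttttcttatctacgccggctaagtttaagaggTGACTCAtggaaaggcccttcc

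C3 held the C/EBP letters from 45 to 38 bases before the start. C3ar1 held the AP-1 letters from 22 to 16 bases before it and the TATA letters from 235 to 230 bases before it. None of the motifs matched in Cfp or in the window of C5ar1. The PU.1 letters were found once in C1qb and once in C1qc. The RefSeq starts of C5ar1 (16259338) and C1qc (136892914) lie inside the deposited genes, which reach to 16259540 and 136893065. Part of each of these windows thus falls within the deposited gene rather than before it. Of 32851 promoter windows of this length, 9.56% held the C/EBP letters, 6.75% AP-1, 12.4% TATA, 23.3% PU.1, 2.98% ISRE and 0.980% NF-kappaB. The NF-kappaB and ISRE patterns matched in none of the 6 windows, and no matches overlapped each other.

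Levels of the 9 genes were compared in deposited TPM, which is scaled by length. After LysoPS the order was C1qb (852 ± 55.8), C1qa (806 ± 24.5), C1qc (767 ± 34.8), C3ar1 (362 ± 8.59), Cfp (316 ± 22.1), C3 (302 ± 21.0), C4b (40.7 ± 5.35) and Cfb (17.2 ± 1.21), with C5ar1 at 113 and 16.1 in replicates 1 and 2. In mock it was C1qc (746 ± 33.0), C1qa (664 ± 21.8), C1qb (660 ± 28.5), C3ar1 (147 ± 1.88), C4b (68.0 ± 1.49), C5ar1 (46.3 ± 2.19), C3 (37.6 ± 5.43), Cfp (36.0 ± 5.59) and Cfb (4.99 ± 1.18; SD, n = 2 each). Neighbours whose libraries overlapped were C1qb with C1qa, C1qa with C1qc and Cfp with C3 after LysoPS, and C1qa with C1qb and C3 with Cfp in mock.

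C3 and Cfp stood among the abundant transcripts after LysoPS. By TPM C3 ranked 396 and 439 of 51826 models in the LysoPS libraries, against 4331 and 5395 in mock. Cfp ranked 377 and 411 after LysoPS, against 4496 and 5635 in mock. The C1q chains ranked between 122 and 154 after LysoPS and between 138 and 169 in mock. The C1q chains held 68.1% and 69.4% of the summed TPM of the 9 genes after LysoPS, against 85.8% and 86.0% in mock. C3 held 8.61% and 8.50% after LysoPS, against 1.67% and 1.44% in mock, and Cfp 9.03% and 8.91%, against 1.61% and 1.37%. An average C1q chain stood 2.68 ± 0.0597 times above C3 after LysoPS and 18.5 ± 1.94 times above it in mock (SD, n = 2 each). The ratio of C3 to C4b was 8.57 and 6.44 in the LysoPS libraries, against 0.599 and 0.503 in mock.

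**Figure D4:**
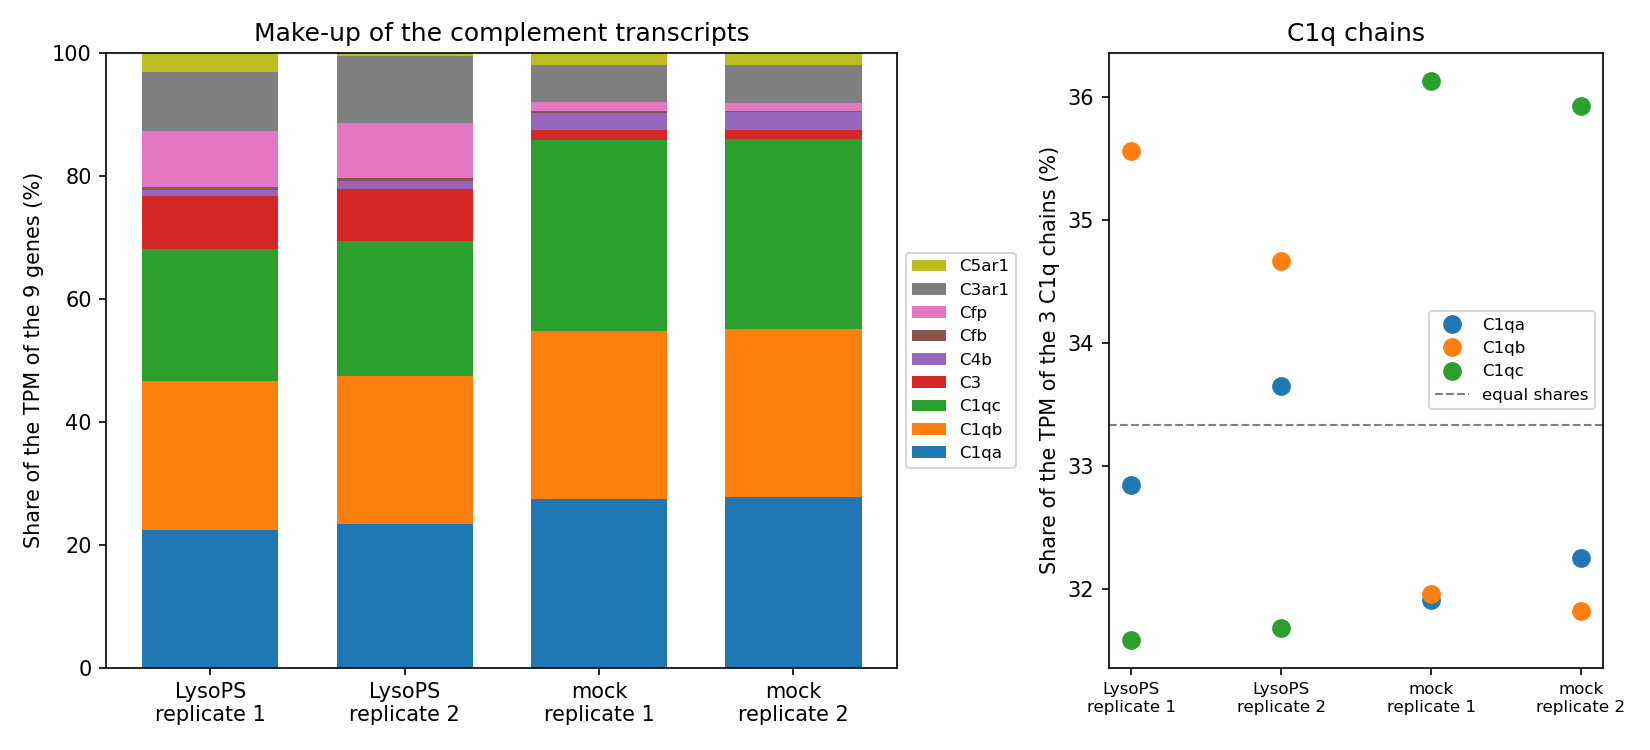
Left, share of each gene in the summed TPM of the 9 complement genes, as stacked bars per library; right, share of each chain in the summed TPM of the C1q chains, as points per library, on an axis that does not start at 0, with the dashed line at equal shares. C3 and Cfp take more of the total in both LysoPS libraries, and C1qc has the smallest C1q share in both LysoPS libraries and the largest in both mock libraries.

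Other genes of the cascade were read from a list of 50 genes (51 gene models, since Itgam has 2), of which 33 models were tested. Of these 9 rose, 8 fell and 16 did not pass, so 51.5% of the tested models were called, against 25.5% of all tested genes. The list's median log2 fold change was -0.14. With library totals as the scaling the split was 7 higher and 11 lower, and the calls of Cd55 and C1qbp were lost. On the TPM scale those of C4a, Hc, Cd55, Cd46, Cd93, C1qbp and Calr were lost. Without mock replicate 1, 10 models were called, and without mock replicate 2, 8. Of 16 called genes other than Itgam, 7 kept their call with each library left out in turn (C1ra, C1rb, C1s1, Clu, Vtn, Itgb2 and Itgax). The other 9 were called neither without mock replicate 1 nor without mock replicate 2.

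Of the genes for the partner proteases of C1q and their relatives, C1ra, C1rb and C1s1 rose, and C1s2 (0.93, adjusted p = 0.120) and C1rl (0.45, adjusted p = 0.162) did not pass. C1ra stood at 39.4 and 30.8 CPM after LysoPS, against 9.35 and 9.04 CPM in mock (log2 fold change 1.93, adjusted p = 0.00167). C1s1 stood at 49.0 and 46.7 CPM after LysoPS, against 15.2 and 15.8 CPM in mock (1.62, adjusted p = 0.000606). C1rb, a close copy of C1ra that could share its reads, changed by 2.08. C1s2, a close copy of C1s1, stood at no more than 1.17 CPM. The groups of C1ra, C1rb and C1s1 did not overlap, and the difference from the C1q chains was not tested. C2, the other substrate of C1s and the neighbour of Cfb, did not pass (-0.19, adjusted p = 0.228). Colec12, a scavenger receptor with a collectin domain, fell (-0.45, adjusted p = 0.0105).

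Of the terminal components, Hc, which encodes C5 in the mouse, fell (-0.74, adjusted p = 0.0222) at a low level of 3.35 and 3.55 CPM after LysoPS, against 5.55 and 5.97 CPM in mock. C4a, the near-identical neighbour of C4b and not a terminal component, fell as well (-0.78, adjusted p = 0.0283). The implied lengths of Hc and C4a varied by 1.47 and 1.69 times. Another 6 listed components had at most 4 counts in any library and were not tested. Among them was Cfd, which encodes factor D, the protease that cuts factor B, with 0 and 0 counts after LysoPS and 2 and 0 in mock (named after its values were seen).

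No soluble regulator rose, and 3 of 7 tested fell. Clusterin (Clu), which binds forming membrane attack complexes, stood at 406 and 387 CPM after LysoPS, against 625 and 572 CPM in mock (-0.59, adjusted p = 0.00535). Vitronectin (Vtn), which does the same, stood at 30.9 and 30.7 CPM after LysoPS, against 51.3 and 49.8 CPM in mock (-0.72, adjusted p = 0.00369). The groups overlapped for neither gene. In the same libraries 10 of 12 astrocyte markers and 2 of 9 fibroblast and mural markers fell, and their part was not tested. Among 6 membrane regulators Cd55, which encodes decay-accelerating factor, rose (0.51, adjusted p = 0.0318) and Cd46 fell (-0.75, adjusted p = 0.0296; implied length varying by 1.29 times). Cr1l, which encodes the mouse regulator Crry, stood at 60.6 and 59.0 CPM after LysoPS and at 65.0 and 52.4 CPM in mock and did not pass.

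Of the genes for integrin receptors of cleaved C3, Itgb2 and Itgax rose. Itgb2, which encodes their shared beta chain, stood at 336 and 299 CPM after LysoPS, against 109 and 98.0 CPM in mock (1.62, adjusted p = 0.000796). Itgax stood at 13.9 and 12.8 CPM after LysoPS, against 5.29 and 5.34 CPM in mock (1.32, adjusted p = 0.00260). The counts of Itgam were split unevenly between its 2 overlapping models. The model ENSMUSG00000030786 rose (1.16, adjusted p = 0.0316), a call lost without LysoPS replicate 1 (adjusted p = 0.0539) or mock replicate 2 (adjusted p = 0.0862). The model ENSMUSG00000108596 had 232 and 353 CPM after LysoPS, against 0.0325 and 43.3 CPM in mock, and did not pass (adjusted p = 0.160). Their sum, which was formed after the data were seen, stood at 600 and 590 CPM after LysoPS, against 159 and 155 CPM in mock (1.92, adjusted p = 0.000323). Vsig4, another C3 receptor, had 2 and 0 counts after LysoPS, against 13 and 5 in mock, and was not tested. Calreticulin (Calr, 0.33, adjusted p = 0.0196) and C1qbp (0.39, adjusted p = 0.0251), which can bind C1q, rose. Cd93 fell (-0.36, adjusted p = 0.0428), and the calls of Calr, C1qbp and Cd93 were lost on the TPM scale.

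**Figure D5:**
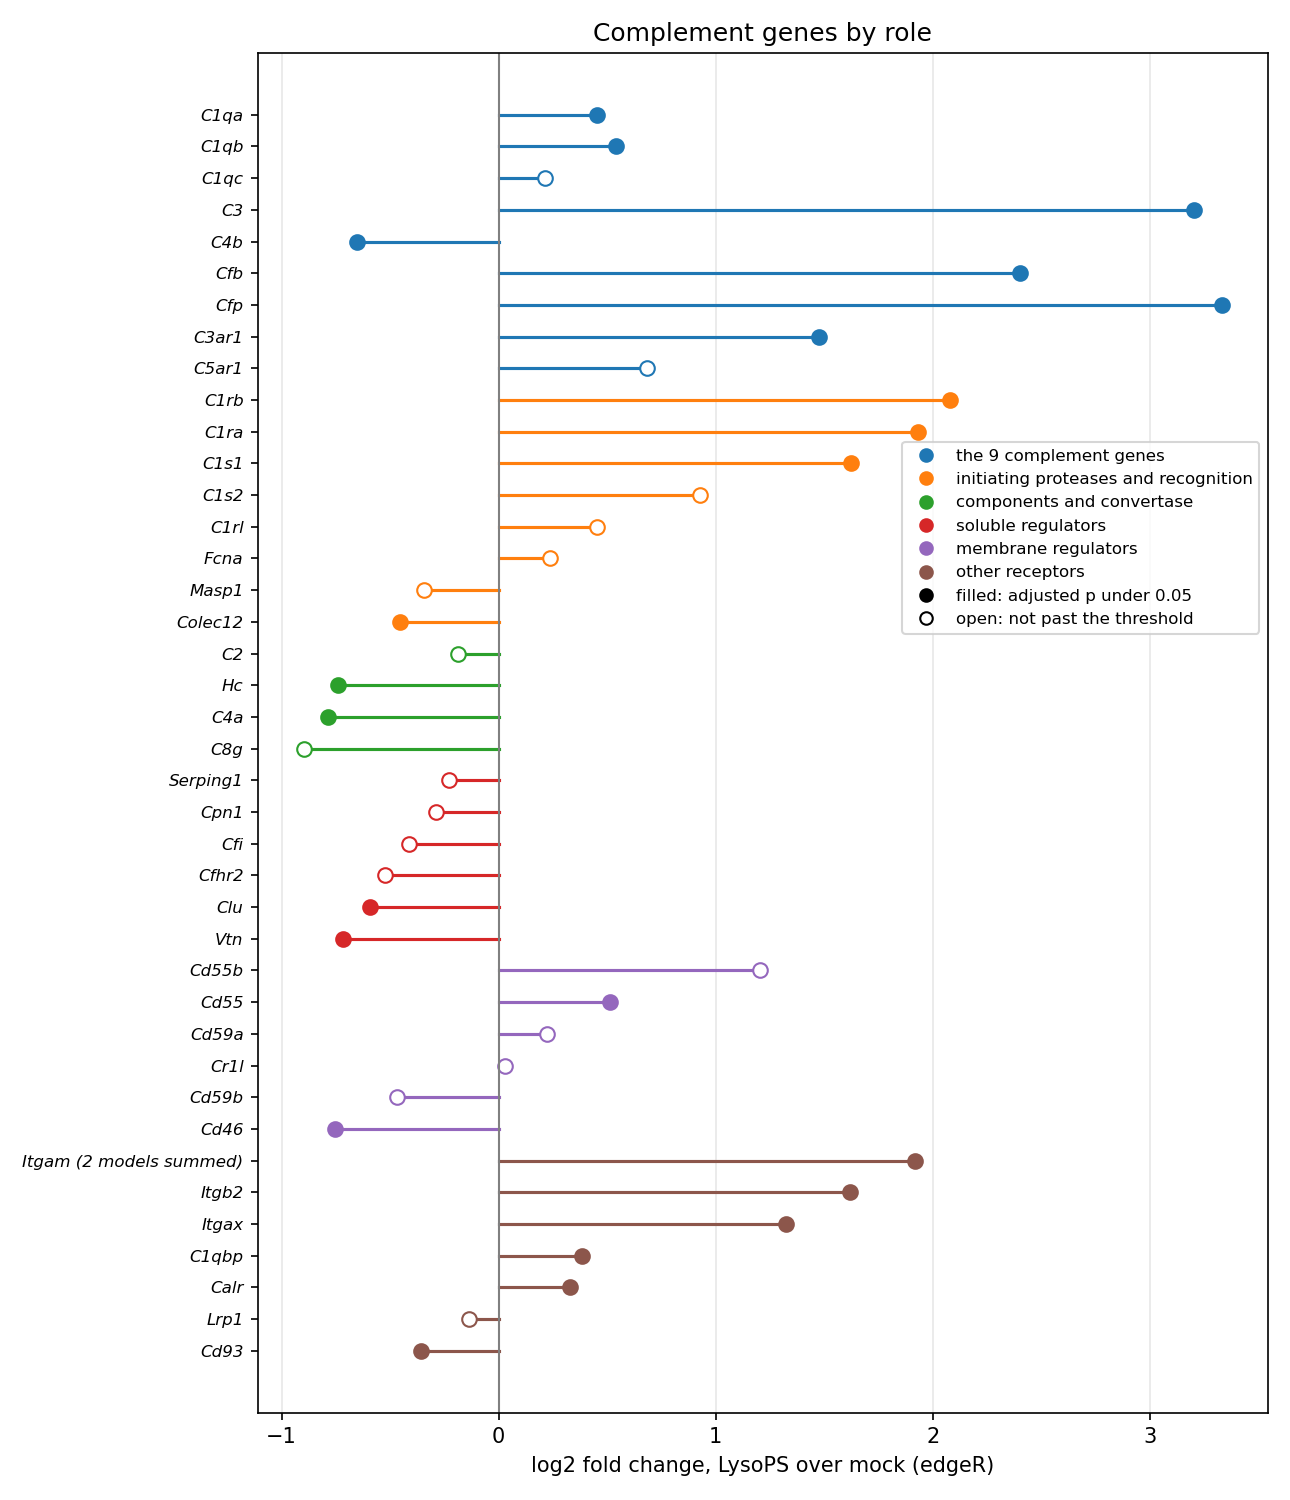
Log2 fold change (LysoPS over mock, edgeR) of the 9 complement genes and of tested genes of the wider list, coloured by role, with Itgam drawn as the sum of its 2 models; filled points passed an adjusted p of 0.05 and open points did not. C1ra, C1rb and C1s1 lie between 1.62 and 2.08, and every soluble regulator drawn lies below 0.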

How the data were processed

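The series holds 1 table that, per the file headers, lists gene models with their count, FPKM and TPM in every library. Per the submitters' processing notes, FastQC 0.11.2, Trimmomatic 0.36, HISAT2 and StringTie were used with the build GRCm38. Parameters, annotation release and counting program are not given in the sources used here, nor is strandedness, so reads of overlapping genes may not be told apart. The authors' counts are whole numbers and not normalized. The deposited TPM columns sum to between 999725 and 999826. The deposited FPKM values served only to derive the transcript length that they and the counts imply, relative to each library's median.

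Counts were tested with edgeR 4.0.16 (R 4.3.3): filterByExpr with a minimum count of 10, TMM scaling (factors from 0.966 to 1.04), and a quasi-likelihood F test of LysoPS against mock with 2 residual degrees of freedom, two-sided, adjusted over 19057 genes at 0.05. The quasi-likelihood test moderates the spread of each gene toward that of the other genes, so its p-values rest on their spread too. CPM used TMM-scaled library sizes. Standard errors came from limma 3.58.1 (voom). Within groups the libraries differed by more than sampling noise (chi-square per degree of freedom 27.1 in LysoPS, 17.3 in mock). The fit was tested on simulated data. The 9 genes had the same coordinates in GENCODE M21, the source of exon numbers.

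The members, gene lists and tests were chosen with earlier results of these data known. Named were the 9 genes, called genes of the wider list that averaged 1 CPM or more in their higher group, and C2, C4a, Hc, C5ar2, Itgam, Itgax, Vsig4, Cr1l and Clu whatever their values. Exceptions are marked in the text, and single results of some listed genes are not reported here. Alternatives were DESeq2 1.42.0 and its size factors, library totals, no filter, a filter of 5 CPM in 2 libraries, limma-voom, log2(TPM + 0.5) with limma, a replicate block, each library left out, glmTreat against a 1.5-fold change, and summed gene models. The sum for Itgam was added after seeing the data.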

Additional observations from a re-analysis of the deposited data

How the results depend on the processing

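The calls of C3, Cfp, Cfb and C3ar1 held under every alternative run, and the call of C4b under all but one. Tested against a 1.5-fold change, 1064 genes passed over all, 4 of the 9 complement genes and 5 models of the wider list, and C1qa (0.45), C1qb (0.54) and C4b (-0.65) were not called. Leaving out 1 library gave from 2165 (without mock replicate 2; 2223 without mock replicate 1) to 5356 calls over all genes, from 5 to 9 among the complement genes and from 8 to 16 in the wider list. The log2 fold change then ranged from 0.38 to 0.52 for C1qa, from 0.43 to 0.65 for C1qb, from 0.13 to 0.30 for C1qc and from -1.39 to 1.51 for C5ar1. On the TPM scale the values were 0.28 for C1qa, 0.37 for C1qb and 0.04 for C1qc. With library totals they were 0.36, 0.45 and 0.12. C5ar1 also changed sign with limma-voom (-0.0024) and on the TPM scale (-0.11). Cr1l, which was not called, changed sign with library totals (-0.0694), on the TPM scale (-0.11) and without mock replicate 2 (-0.12), and leaving out 1 library put it between -0.12 and 0.19. Library totals and the TPM scale put the median of all genes at -0.11 and -0.16, against -0.01. Same-numbered libraries shared little over all tested genes (correlation of deviations 0.0775). With 2 libraries per group this cannot decide whether the replicate number is a pairing, and the labels state none. With the replicate number as a block C1qc was called (0.21, adjusted p = 0.0264). Over all genes 5433 then passed and 8 of the 9 complement genes, and no other complement gene changed its call. Causes were not tested. Among 20 other results on single genes, 47 of 259 alternatives lost a call, 2 gained one, 3 changed sign and 207 did neither. The lowest count of any of the 9 genes in a library was 141, of Cfb in mock.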

Other observations

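The macrophage markers beside the complement genes did not move as one. Adgre1, which encodes the macrophage surface receptor F4/80, stood at 2037 and 1919 CPM after LysoPS, against 186 and 148 CPM in mock (log2 fold change 3.57, edgeR adjusted p = 0.000359), beside 3.20 for C3 and 3.33 for Cfp. The lipid receptor gene Trem2 (-0.80, adjusted p = 0.00285) fell in the same libraries, and the microglial gene Tmem119 stood at 53.4 and 57.0 CPM after LysoPS and at 54.1 and 55.5 CPM in mock.

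Differences of at least 5-fold between replicates, such as the 7.41-fold one of C5ar1 in LysoPS, were rare. Of 10895 tested genes averaging 10 CPM or more in LysoPS, 21 (0.193%) differed at least 5-fold between the LysoPS libraries, and of 10967 such genes in mock 22 (0.201%) did so between the mock libraries. The median difference was 1.09 times in LysoPS and 1.06 times in mock. Cx3cr1, the fractalkine receptor of microglia, was chosen after its values were seen. It stood at 176 and 19.5 CPM in LysoPS replicates 1 and 2 and at 132 and 13.4 CPM in mock replicates 1 and 2. Replicate 2 was thus the lower one in both groups. For C5ar1, LysoPS replicate 1 lay above both mock libraries and LysoPS replicate 2 below both.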
